A study of Mus musculus with 45 samples.

Results

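Genes that the transcription factor p53 is known to switch on were followed after chronic intermittent ethanol (CIE) in the NAC, the nucleus accumbens, which is the ventral part of the striatum and belongs to the reward circuit. The list held 10 genes: Cdkn1a, Trp53inp1, Mdm2, Ccng1, Gadd45a, Sesn1, Btg2, Bbc3, Bax and Phlda3. Every probeset to which the platform annotation gives only 1 of these symbols was taken, which came to 19 probesets of 9 genes out of the 45037 probesets measured. Bax was not analysed here, and neither was Trp53, the gene of p53 itself. Probesets of a gene read the same transcripts and are not independent of each other.

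Each array held RNA from the NAC of 1 adult male C57BL/6J mouse. CIE mice went through 4 cycles of ethanol vapor, 16 h per day over 4 days, with 7 days without ethanol between cycles, and were injected with ethanol (1.6 g/kg) and pyrazole (1 mmol/kg), which blocks alcohol dehydrogenase. Ctrl mice went through cycles of air and were injected with saline and pyrazole, so that both groups carry the pyrazole and the handling. The times of 0 h, 8 h, 72 h and 7 d count from the end of the final exposure. Groups held 6 CIE and 6 Ctrl arrays at the earliest time, 5 of each at 8 h, 5 CIE and 6 Ctrl arrays at 72 h and 6 of each at 7 d.

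In unstressed cells p53 is kept low by the ubiquitin ligase Mdm2, whose own gene p53 activates. When DNA damage, oxidants, nutrient shortage or other stress stabilizes p53, it binds response elements near its target genes and raises brakes of the cell cycle, DNA repair genes, antioxidant genes and death genes of the BH3-only class. Several of these genes also respond to other factors, so a change in 1 of them does not identify p53. In brain most neurons have left the cell cycle, and p21, the product of Cdkn1a, is also found in glia and in cells of vessels.

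Values are log2 expression. A change is the difference of CIE from Ctrl mice of the same time, given with the standard error (SE) of a linear model over all 45 arrays, and a gene is said to rise or fall where its p adjusted over all probesets was 0.01 or less. The spread given with a mean is the SD over arrays, and n is the number of arrays, which is what limits the precision. Array medians lay between 6.94 and 6.96. Drd1, a dopamine receptor of striatal medium spiny neurons, was between 12.05 and 12.87 in all 45 arrays, and Penk, the enkephalin precursor of such neurons, between 13.27 and 13.93. Markers of cortical pyramidal neurons (9 of 10 listed genes measured) averaged 7.51 to 9.86 in CIE arrays and 7.37 to 9.04 in Ctrl arrays at 0 h, with CIE replicates 72, 5 and 67 the highest at 9.86, 9.58 and 9.28. Markers of medium spiny neurons (10 of 12 measured) averaged 11.67 to 12.37 in CIE arrays (median 11.97) and 12.03 to 12.32 in Ctrl arrays (median 12.25) at 0 h, and the same 3 CIE arrays were the lowest, at 11.67, 11.78 and 11.86. Of these 10 genes 1 had a positive change at 0 h, beside 56.9% of all genes, and none passed. At an unadjusted p of 0.05 or less there were 6, beside 18.4% of all genes. Rgs9, a regulator of G protein signalling, was lower past 0.05 only (-0.41, adjusted p = 0.0348), where 321 of all 18193 genes were lower. The changes of Cdkn1a and Trp53inp1 at 0 h are also given without these 3 arrays, and the part of this marker difference in the other p53 target values was not tested.

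At 0 h 2 of the 19 probesets passed, both higher in CIE mice, against 1.59% of all probesets called in either direction and 0.973% called higher. At 0.05 it was 3 of 19, beside 3.93% of all. The 2 probesets belong to Cdkn1a and Trp53inp1. Members of the list were chosen with earlier results of these data known, so their share called is not independent of the data. The remaining 7 genes did not pass at 0 h, and no probeset of any of the 9 genes passed at 8 h, 72 h or 7 d, where 0.0622%, 0% and 0% of all probesets were called in limma. At an unadjusted p of 0.05 or less there were 5, 2 and 0 of the 19 at these times, beside 7.42%, 7.2% and 2.34% of all. Over the 9 genes at their brightest probesets the median change at 0 h was 0.13, beside 0.02 over all 18193 genes.

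**Figure D1:**
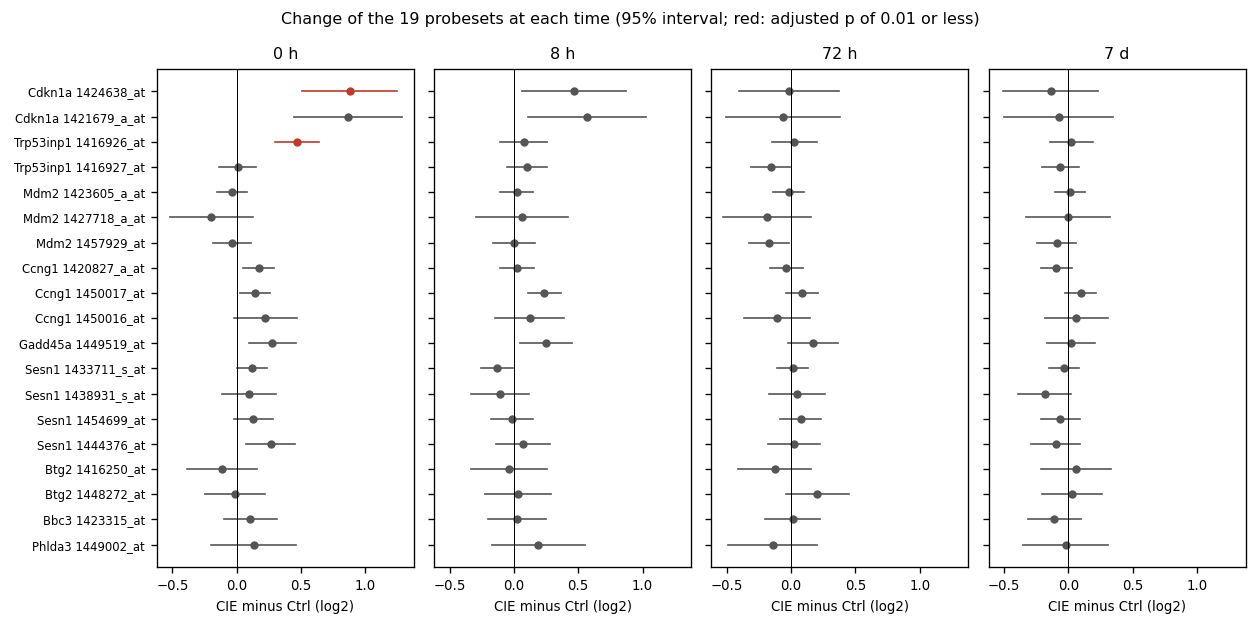
Change of each of the 19 probesets (CIE minus Ctrl, log2 units, horizontal axis) at the 4 times, with the 95% interval as a line and red where the adjusted p was 0.01 or less. Only Cdkn1a (0.88) and Trp53inp1 (0.47) at 0 h are red, and the second Cdkn1a probeset (0.87) just missed the threshold.

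Cdkn1a encodes p21, an inhibitor of cyclin-dependent kinases and the classical arrest gene downstream of p53. Its gene lies on chromosome 17 (29090979 to 29100722, GRCm38.p6). The bases before its upstream start site are printed because Cdkn1a had the largest change of the list at 0 h, and capitals mark the matches to the p53 decamer, the 10-base unit that occurs in pairs in p53 response elements and reads the same on both strands. The window is chr17:29090729-29090978 on the plus strand, credited to RefSeq on GRCm38.p6.

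Cdkn1a promoter: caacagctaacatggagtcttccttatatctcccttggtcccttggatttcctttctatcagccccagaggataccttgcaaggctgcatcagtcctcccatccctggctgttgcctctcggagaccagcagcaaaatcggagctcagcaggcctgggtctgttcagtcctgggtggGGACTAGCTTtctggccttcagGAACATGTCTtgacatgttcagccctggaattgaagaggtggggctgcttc

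The window holds 2 exact decamers with 12 bases between them, the farther one 73 bases before the start. Only exact matches were marked and counted, so a decamer with a departing base is missed. The 10 bases directly after the nearer decamer depart from the pattern at their first base only and are not marked. Of 32851 such windows of 250 bases in the RefSeq table, 7.13% held a decamer and 0.0639% (21 windows) held 2 of them with a spacer of up to 13 bases. A second Cdkn1a window, at chr17:29093519-29093768, held none. A match to these letters is a description of the sequence and does not show that p53 bound there.

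At 0 h the 6 CIE arrays of Cdkn1a (1424638_at) stood at 9.13, 9.33, 9.55, 10.53, 10.55 and 10.89, against a lowest value of 8.76, a median of 9.07 and a highest value of 9.44 in the 6 Ctrl arrays. CIE arrays fell into a low run and a high run, and replicates 72 and 67, which were also the first and the third highest in cortical markers, lay inside the Ctrl range while the other 4 were above all Ctrl arrays. The CIE mean was 10.00 ± 0.74 and the Ctrl mean 9.12 ± 0.26 (SD, n = 6 each), so the CIE arrays spread 2.91 times as widely. The change was 0.88 (SE 0.18, 95% interval 0.51 to 1.25, adjusted p = 0.0027), a 1.84-fold difference of geometric means. In whole tissue, more RNA per cell and more cells of an expressing type cannot be told apart.

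The second Cdkn1a probeset (1421679_a_at) gave the same picture. Its CIE arrays at 0 h were at 8.30, 8.32, 9.12, 9.93, 9.94 and 10.35, and its Ctrl arrays at 8.12, 8.33, 8.47, 8.51, 8.62 and 8.71. Again 4 CIE arrays lay above all Ctrl arrays. Its change of 0.87 (SE 0.21) had an adjusted p of 0.0101 and just missed the threshold, and its values followed those of the first probeset over the 45 arrays with r = 0.95.

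The Cdkn1a call at 0 h rested on single arrays more than that of Trp53inp1. Without CIE replicate 5 or CIE replicate 26 the adjusted p was 0.016 and 0.0145, and with only the arrays of 0 h in the fit, which then take their spread from these 12 arrays alone, it was 0.198.

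Arrays that share exactly equal values were taken as 1 hybridization set, and each set held at most 1 array per group. Within such sets Cdkn1a was higher in the CIE array of 4 of 5 sets at 0 h, by 1.38, 1.57, 2.12 and 0.18, and lower by 0.11 in the fifth set. CIE replicate 72, the lowest in Cdkn1a, had no Ctrl array of 0 h in its set, and Ctrl replicate 20 was in no set. Neither enters the set counts at 0 h. With the sets as a block the change was 0.85 and the adjusted p 0.0201. Leaving out the 3 CIE arrays with the highest cortical marker means and no Ctrl array gave a Cdkn1a change of 1.21 (adjusted p = 7.00e-05). This setting was chosen after seeing the data. Replicates 72 and 67, among the arrays left out, had the lowest Cdkn1a values of CIE at 0 h. The larger change therefore follows in part from which arrays were left out. Markers of endothelium and pericytes (all 10 measured) averaged 8.57 to 8.89 in CIE arrays and 8.90 to 9.02 in Ctrl arrays at 0 h, without overlap, and those of microglia (9 of 10) averaged 9.46 to 9.81 in CIE arrays and 9.73 to 10.28 in Ctrl arrays. The members of these lists differed. Of the 9 microglial genes 2 passed as lower (Fcrls, -1.21, and P2ry12, -0.48) and 1 had a positive change. Cx3cr1 was lower without passing (-0.58, adjusted p = 0.021), while Csf1r and C1qc changed by -0.003 and -0.02. Of the 10 endothelial and pericyte genes 1 passed as lower (Vtn, -0.46) and 1 had a positive change. Lower without passing were Kcnj8 (-0.32, adjusted p = 0.0187), Rgs5 (-0.29, adjusted p = 0.0306) and Tek (-0.31, adjusted p = 0.0397). Cldn5 and Cdh5 changed by -0.07 and -0.02. Of all genes 0.654% were called lower at 0 h. Astrocyte markers (all 10 measured) averaged 10.684 to 10.941 in CIE arrays and 10.745 to 11.014 in Ctrl arrays at 0 h. Of these genes 4 had a positive change and 1 passed as higher (Gjb6, 0.56, adjusted p = 0.0036). Of all genes 1.28% were called higher. S100b (-0.26) and Aqp4 (-0.20) did not pass. At 8 h the Gjb6 change was 0.47 (adjusted p = 0.139). The part of endothelial, microglial and astrocyte RNA in the p53 target values was not tested.

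At 8 h Cdkn1a stood at 8.98, 9.31, 9.33, 9.36 and 9.67 in CIE arrays and at 8.68, 8.89, 8.90, 8.92 and 8.93 in Ctrl arrays. Every CIE array was above every Ctrl array, at this probeset and at the second one (8.53 to 9.12 in CIE arrays, 7.84 to 8.25 in Ctrl arrays), while 0.953% of all probesets were split in this direction. The difference did not pass the model's test at either probeset, with changes of 0.47 (SE 0.20, adjusted p = 0.55) and 0.57 (SE 0.23, adjusted p = 0.471). It was positive in 5 of 5 hybridization sets at both probesets, by 0.05 to 0.78 at 1424638_at. With only the arrays of 8 h the SE of the first probeset was 0.11 and the adjusted p 0.214. Of the blood markers (3 of 4 measured), Alas2, the erythroid enzyme of heme synthesis, had a change of -0.69 at 8 h (adjusted p = 0.0806), while Hba-a1 and Slc4a1 had changes of -0.01 each. The part of blood in the Cdkn1a values was not tested.

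**Figure D2:**
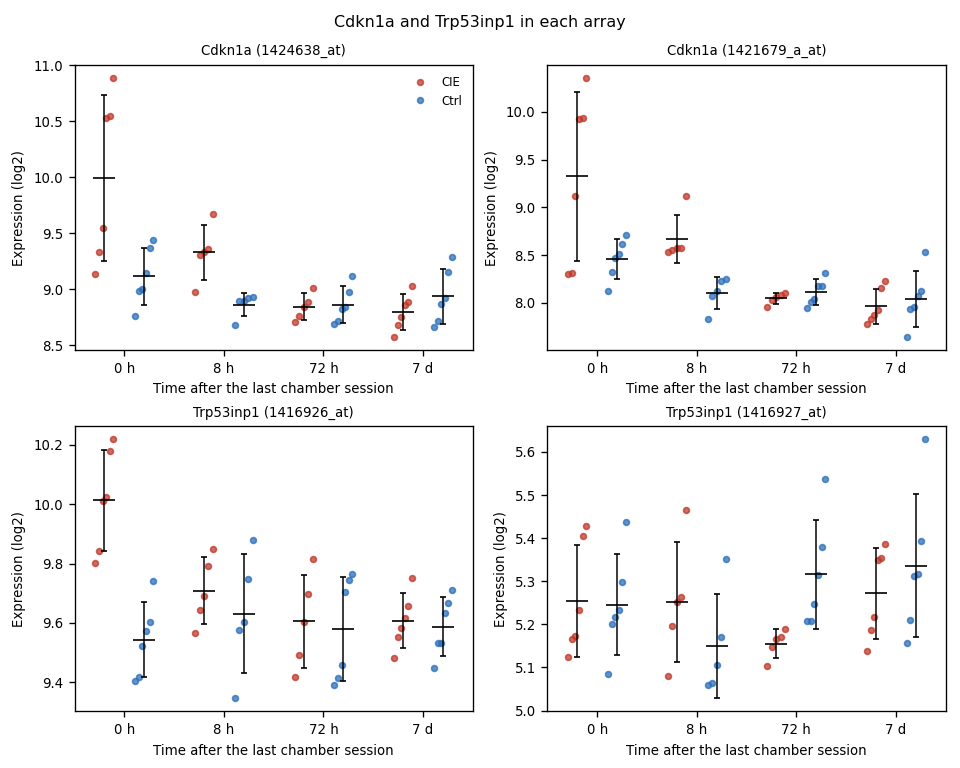
Expression (log2, vertical axis) of Cdkn1a and Trp53inp1 at 2 probesets each, over time after the last chamber session, with 1 point per array sorted by value within its group (CIE red, Ctrl blue) and the mean with its SD in black. Cdkn1a in CIE arrays ran between 9.13 and 10.89 at 0 h and between 8.98 and 9.67 at 8 h, and from 72 h on the groups overlapped.

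By 72 h the Cdkn1a groups overlapped: CIE arrays were at 8.71 to 9.02 (median 8.84), and Ctrl arrays had a lowest value of 8.69, a median of 8.83 and a highest value of 9.12. At 7 d the lowest, median and highest values were 8.57, 8.81 and 9.03 in CIE arrays and 8.67, 8.90 and 9.29 in Ctrl arrays. The changes were -0.02 (95% interval -0.41 to 0.37) at 72 h and -0.14 (-0.51 to 0.23) at 7 d. Within CIE mice Cdkn1a fell by 1.15 between 0 h and 72 h (adjusted p = 0.00017) and dropped by 1.20 between 0 h and 7 d (adjusted p = 3.9e-05). The second probeset fell by 1.28 and fell by 1.36 in the same comparisons (adjusted p = 0.00023 and 4.0e-05).

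In Ctrl mice the later Cdkn1a means were also below that of 0 h, by 0.25 at 8 h, 0.25 at 72 h and 0.18 at 7 d, and none of these differences passed (lowest adjusted p = 0.923). Whether the CIE effect itself differed between times was tested directly. The change of Cdkn1a at 7 d was lower than that at 0 h by 1.02 (SE 0.26, adjusted p = 0.0459), which passed 0.05 (as did 0.755% of all probesets) but not 0.01. With the hybridization sets as a block it was -0.99 (adjusted p = 0.158) and no longer passed 0.05, and at the second probeset the difference was -0.94 (adjusted p = 0.137). At 72 h the same difference was -0.90 (SE 0.27, adjusted p = 0.173) and at 8 h -0.41 (SE 0.27, adjusted p = 0.989).

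The 8 group means of Cdkn1a ran, high to low, from CIE at 0 h (10.00 ± 0.74) over CIE at 8 h (9.33 ± 0.25), Ctrl at 0 h (9.12 ± 0.26), Ctrl at 7 d (8.94 ± 0.25), Ctrl at 8 h (8.86 ± 0.10), Ctrl at 72 h (8.86 ± 0.16) and CIE at 72 h (8.84 ± 0.12) to CIE at 7 d (8.80 ± 0.16). No pair of neighbours in this order differed by more than the larger SD of the pair.

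Trp53inp1 encodes a stress-induced nuclear protein that promotes p53 activity and autophagy. Its gene lies on chromosome 4 (11156441 to 11174379). At 0 h the CIE arrays of 1416926_at were at 9.80, 9.84, 10.01, 10.02, 10.18 and 10.22, against 9.41, 9.42, 9.52, 9.57, 9.60 and 9.74 in Ctrl arrays. The groups did not overlap, as held for 0.777% of all probesets with CIE on top and for 1 of the 19 p53 target probesets.

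The CIE mean of Trp53inp1 was 10.01 ± 0.17 and the Ctrl mean 9.54 ± 0.13 at 0 h (SD, n = 6 each), a change of 0.47 (SE 0.08, 95% interval 0.30 to 0.64, adjusted p = 0.00041), or 1.38-fold. It was called without each of the 12 arrays of 0 h in turn, with changes of 0.43 to 0.51. The CIE array was higher in 5 of 5 hybridization sets, by 0.27 to 0.78, and with the sets as a block the change was 0.49 (adjusted p = 0.0027). Without the 3 of 6 CIE arrays with the highest cortical marker means, and with all Ctrl arrays kept, it was 0.48 (adjusted p = 0.0064). That setting was chosen after seeing the data. With only the arrays of 0 h in the fit the adjusted p was 0.0271, past 0.05 but not 0.01.

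**Figure D3:**
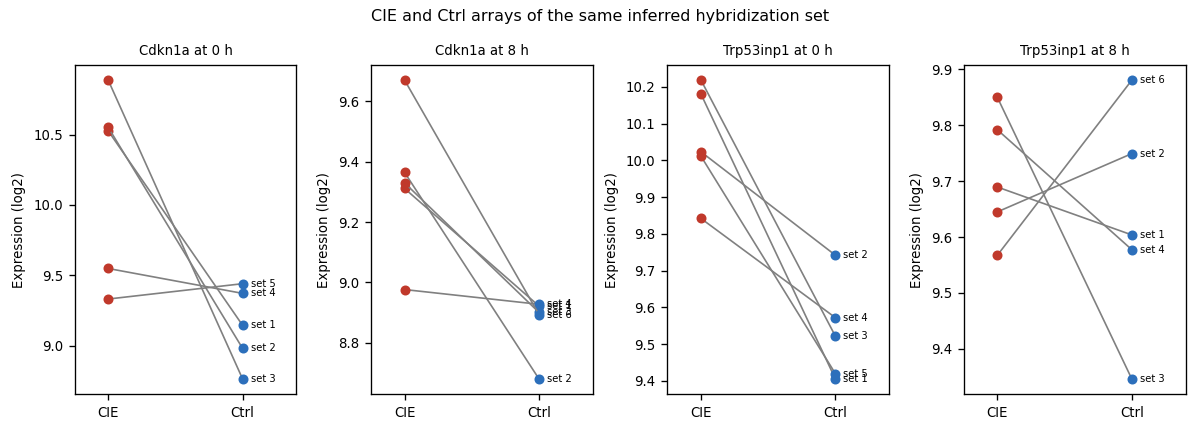
Expression (log2) of Cdkn1a (1424638_at) and Trp53inp1 (1416926_at) in CIE and Ctrl arrays of the same inferred hybridization set, joined by a line, at 0 h and 8 h. Trp53inp1 at 0 h and Cdkn1a at 8 h were higher in the CIE array of all 5 sets, and Cdkn1a at 0 h in 4 of 5. At 0 h CIE replicate 72 and Ctrl replicate 20 had no partner and are not drawn.

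At 8 h the CIE arrays of Trp53inp1 stood at 9.57, 9.64, 9.69, 9.79 and 9.85 and its Ctrl arrays at 9.35, 9.58, 9.60, 9.75 and 9.88. All CIE values were inside the Ctrl range, whereas those of Cdkn1a were all above the Ctrl arrays at that time. The change was 0.08 (SE 0.09) at 8 h, 0.03 (SE 0.09) at 72 h and 0.02 (SE 0.08) at 7 d. Within CIE mice it fell by 0.41 both between 0 h and 72 h and between 0 h and 7 d (adjusted p = 0.0032 and 0.0021), while its drop of 0.30 to 8 h had an adjusted p of 0.059. The later change was lower than that at 0 h by 0.39 at 8 h, 0.44 at 72 h and 0.45 at 7 d, with adjusted p of 0.487, 0.117 and 0.0551.

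Among the group means of Trp53inp1, CIE at 0 h was the highest and stood 0.30 above CIE at 8 h (9.71 ± 0.11), more than the SD of either group. The other 7 means lay between 9.54 and 9.71, and neighbours in their order differed by at most 0.08, within the SDs. In an F test over the 4 CIE minus Ctrl differences, Trp53inp1 was the 1 p53 target probeset of 19 that passed (adjusted p = 0.0078), where 0.901% of all probesets did. Cdkn1a had an adjusted p of 0.0145 in that test, in which 4 of the 19 and 2.33% of all probesets passed 0.05.

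A second Trp53inp1 probeset (1416927_at) was dim, at the 26.8th percentile of all probesets by mean, and its values did not follow those of the bright one (r = 0.08 over 45 arrays). Its change at 0 h was 0.01 (SE 0.07). At 72 h all 5 CIE arrays, at 5.10 to 5.19, lay below all 6 Ctrl arrays, at 5.21 to 5.54, as did 0.389% of all probesets, and the change of -0.16 did not pass (adjusted p = 0.682).

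Mdm2, the ubiquitin ligase that degrades p53 and is itself a standard p53 target, did not pass at any time. At 0 h its brightest probeset (1423605_a_at, chromosome 10, 117688875 to 117710758) had a lowest, median and highest value of 10.17, 10.47 and 10.54 in CIE arrays and 10.38, 10.44 and 10.60 in Ctrl arrays. The CIE range covered most of the Ctrl range. The change was -0.03 with a 95% interval of -0.15 to 0.08, and at 8 h, 72 h and 7 d it was 0.02, -0.02 and 0.01. The other Mdm2 probesets changed by -0.20 (1427718_a_at, SE 0.16) and -0.04 (1457929_at, SE 0.07) at 0 h.

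Ccng1 encodes cyclin G1, which brings a phosphatase to Mdm2 and is itself switched on by p53. Its brightest probeset (1420827_a_at, chromosome 11, 40748552 to 40755309) was at 10.56, 10.76, 10.84, 10.87, 10.88 and 10.95 in CIE arrays and 10.51, 10.61, 10.61, 10.62, 10.62 and 10.86 in Ctrl arrays at 0 h. The overlap came from the lowest CIE array and from Ctrl replicate 48. The change of 0.17 (SE 0.06) had an adjusted p of 0.0976, and the other probesets changed by 0.14 and 0.22 without passing.

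At 8 h the Ccng1 probeset 1450017_at stood out more than the brightest one. Its CIE arrays were at 8.93, 9.10, 9.11, 9.12 and 9.13, against 8.77, 8.78, 8.79, 8.83 and 9.04 in Ctrl arrays. Only CIE replicate 51 and Ctrl replicate 79 broke the separation. The change was 0.24 (SE 0.06, unadjusted p = 0.00065, adjusted p = 0.117), while at the brightest probeset it was 0.03 (SE 0.07) and at the third probeset, 1450016_at, 0.12 (SE 0.13), so the probesets did not give 1 answer for Ccng1 at 8 h. Within CIE mice the brightest probeset was lower at 7 d than at 0 h by 0.24 (adjusted p = 0.0132), which passed 0.05 only.

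Gadd45a encodes a growth arrest and DNA damage protein that binds p21 and PCNA. At 0 h its only probeset (1449519_at, chromosome 6, 67035096 to 67037407) was at 7.00, 7.15, 7.32, 7.37, 7.40 and 7.41 in CIE arrays and at 6.76, 6.82, 6.97, 7.12, 7.15 and 7.16 in Ctrl arrays. The upper 4 CIE arrays were above all Ctrl arrays. The change of 0.28 (SE 0.09, adjusted p = 0.0789) did not pass, and neither did 0.25 (SE 0.10, adjusted p = 0.473) at 8 h, where CIE arrays ran between 7.15 and 7.36 and Ctrl arrays between 6.76 and 7.31. It was 0.17 (SE 0.10) at 72 h and 0.02 (SE 0.09) at 7 d.

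Sesn1 encodes sestrin 1, an antioxidant protein that restrains mTORC1 after stress, and 4 probesets read it. Its brightest probeset (1433711_s_at, chromosome 10, 41810574 to 41908436) was at 10.88, 11.01, 11.06, 11.18, 11.19 and 11.21 in CIE arrays and between 10.88 and 11.01 in Ctrl arrays at 0 h. Of the CIE arrays 4 were above the Ctrl range, and the change of 0.12 (SE 0.06) had an adjusted p of 0.265. At 8 h it was -0.13 (SE 0.06, adjusted p = 0.641), with CIE arrays at 10.65, 10.73, 10.88, 10.97 and 11.02 and Ctrl arrays between 10.90 and 11.04. The other 3 probesets of Sesn1 changed by 0.10 to 0.27 at 0 h and none passed.

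Within CIE mice the level of Sesn1 at 1433711_s_at was lower than at 0 h by 0.24 at 8 h (adjusted p = 0.0248), 0.20 at 72 h (adjusted p = 0.043) and 0.23 at 7 d (adjusted p = 0.0113), all past 0.05 and none past 0.01. With the hybridization sets as a block the adjusted p was 0.0616 at 8 h, 0.0827 at 72 h and 0.0277 at 7 d, so that 7 d alone passed 0.05. At 0.05 without the block, 1 of the 19 probesets passed at 8 h, 4 at 72 h and 5 at 7 d in CIE mice, beside 1.74%, 3.84% and 3.32% of all probesets. Its 3 other probesets did not reach 0.05 in these comparisons.

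Btg2 encodes an antiproliferative protein that slows entry into S phase and is also an immediate early gene of neurons. Its brightest probeset (1416250_at, chromosome 1, 134074865 to 134079155) had lowest, median and highest values of 8.22, 8.53 and 8.77 in CIE arrays and 8.06, 8.74 and 8.87 in Ctrl arrays at 0 h. The change was -0.11 (SE 0.13), and -0.01 at the second probeset. In Ctrl mice the second probeset, 1448272_at, was 0.44 lower at 72 h than at 0 h (unadjusted p = 0.00047, adjusted p = 0.204), and the brightest was 0.46 lower at 7 d (adjusted p = 0.292).

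Bbc3 encodes PUMA, a BH3-only protein that triggers mitochondrial cell death. At 0 h 1423315_at (chromosome 7, 16308398 to 16318334) ran between 7.41 and 7.77 in CIE arrays, with a median of 7.53, and between 7.00 and 7.75 in Ctrl arrays, with a median of 7.62. The CIE range lay mostly inside the Ctrl range, and the change was 0.11 (SE 0.10, adjusted p = 0.677).

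Phlda3 encodes a pleckstrin homology domain protein that holds back the kinase Akt. Its probeset (1449002_at, chromosome 1, 135766085 to 135769134) ran between 8.53 and 9.23 in CIE arrays and between 8.48 and 9.02 in Ctrl arrays at 0 h, with medians of 8.96 and 8.86. The change of 0.13 (SE 0.16) was smaller than its SE. At 8 h it was 0.19 (SE 0.18), at 72 h -0.14 (SE 0.17) and at 7 d -0.02 (SE 0.16).

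**Figure D4:**
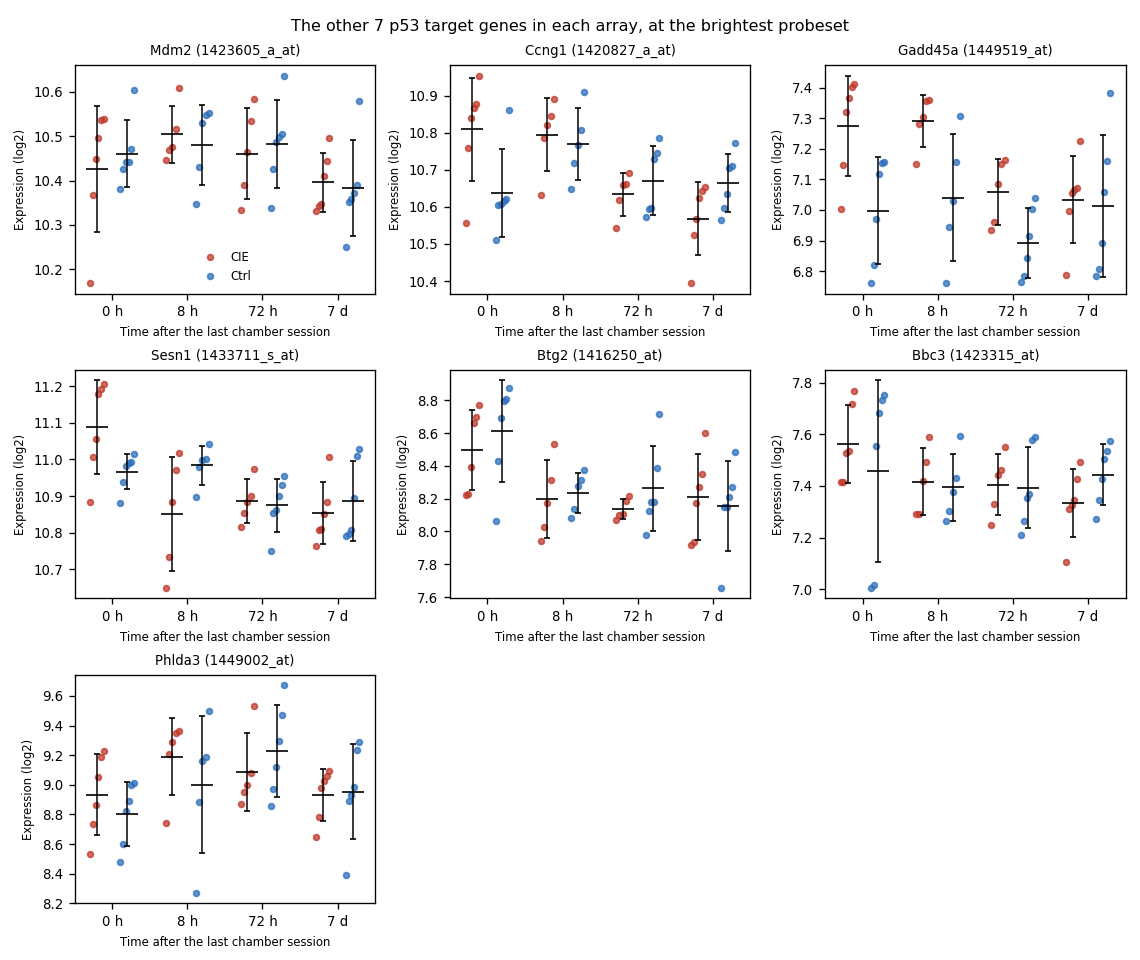
Expression (log2, vertical axis) of the other 7 p53 target genes at the brightest probeset, over time after the last chamber session, with 1 point per array sorted by value within its group (CIE red, Ctrl blue) and the mean with its SD in black. None of the 7 separated completely by group at any time. At 0 h Gadd45a and Sesn1 each had 4 of 6 CIE arrays above all Ctrl arrays.

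Counted over all 19 probesets, 14 had a positive change at 0 h and 15 at 8 h, where 51.8% and 50.4% of all probesets did. At 72 h it was 9, beside 59.4% of all probesets, and at 7 d 7, beside 47.6%. These counts treat several probesets of 1 gene as separate. Within CIE mice, 3 probesets, those of Cdkn1a and the bright one of Trp53inp1, were lower at 72 h than at 0 h, beside 1.62% of all probesets called and 0.651% called lower. The same 3 were lower at 7 d, beside 1.5% called and 0.802% called lower. None passed between 0 h and 8 h in CIE mice (0.633% called) or at any later time in Ctrl mice (0%, 0.0488% and 0.0799% called at 8 h, 72 h and 7 d). At an unadjusted p of 0.05 or less 8 probesets differed between 8 h and 0 h in CIE mice, beside 12.7% of all, and 2, 3 and 3 at the later times in Ctrl mice, beside 5.03%, 5.54% and 5.91%. No p53 target probeset passed for a change that differed from that at 0 h, where 0%, 0.0755% and 0.2% of all probesets were called at 8 h, 72 h and 7 d. Unadjusted, 2, 4 and 5 of the 19 had a p of 0.05 or less, beside 5.51%, 7.64% and 9.89% of all.

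Other genes of the pathway were taken from 4 lists and described at their brightest probesets. Among 19 regulators and relatives of p53, including the kinases Atm, Atr and Chek2, the Mdm2 partner Mdm4 and the phosphatase Ppm1d, none passed in either direction at 0 h, where 1.28% of all 18193 genes were called higher and 0.654% lower. Their changes had a median of -0.01, and 3 of them had an unadjusted p of 0.05 or less, as did 18.4% of all genes.

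Of 33 other p53 targets 2 rose at 0 h and none fell, beside 1.28% of all genes called higher and 0.654% lower. At an unadjusted p of 0.05 or less there were 10, beside 18.4% of all genes, 9 of them higher in CIE mice. Bid, a BH3-only protein that is cleaved on the way to cell death, changed by 0.52 (SE 0.11, adjusted p = 0.0039), and Xpc, a damage sensor of nucleotide excision repair, by 0.32 (SE 0.07, adjusted p = 0.0045). Pmaip1, the gene of the BH3-only protein NOXA, changed by 0.56 (adjusted p = 0.0337) and Sesn2, the relative of Sesn1, by 0.23 (adjusted p = 0.0484), past 0.05 only, as 3.05% of all genes were on the higher side. The median over the 33 genes was 0.07. Targets that did not pass included Tap1 (0.66), Shisa5 (0.23), Apaf1 (0.20), Fas (0.17), Plk2 (0.06), Ei24 (0.04), Ddb2 (0.02) and Zmat3 (-0.10).

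Among 20 paralogues of the p53 targets 1 rose at 0 h, beside 1.28% of all genes called higher, and 7 had an unadjusted p of 0.05 or less, beside 18.4%. Sesn2, also counted among the other p53 targets, and Mdm4, also counted among the regulators, are on this list too. Bok, a member of the BCL-2 family related to Bax, changed by 0.44 (SE 0.10, adjusted p = 0.0053), and Bcl2l11, the gene of the BH3-only protein BIM, by 0.38 (adjusted p = 0.0494). The closest relatives of Cdkn1a did not pass, with changes of 0.09 (Cdkn1b, encoding p27) and 0.17 (Cdkn1c, encoding p57). None of the 15 genes listed as partners of p21, which are cyclins, kinases and other cell cycle genes, passed at 0 h. Of the 15 genes 4 had an unadjusted p of 0.05 or less, beside 18.4% of all genes, and the median change of the list was 0.01. At 8 h, 72 h and 7 d no gene of the 4 lists passed, where 0.044% of all genes were called higher and 0.0385% lower at 8 h and 0% later. Unadjusted, between 1 and 3 genes of each list had a p of 0.05 or less at 8 h and at 72 h, beside 8.04% and 4.56% of all genes, and at most 1 at 7 d, beside 1.97%.

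**Figure D5:**
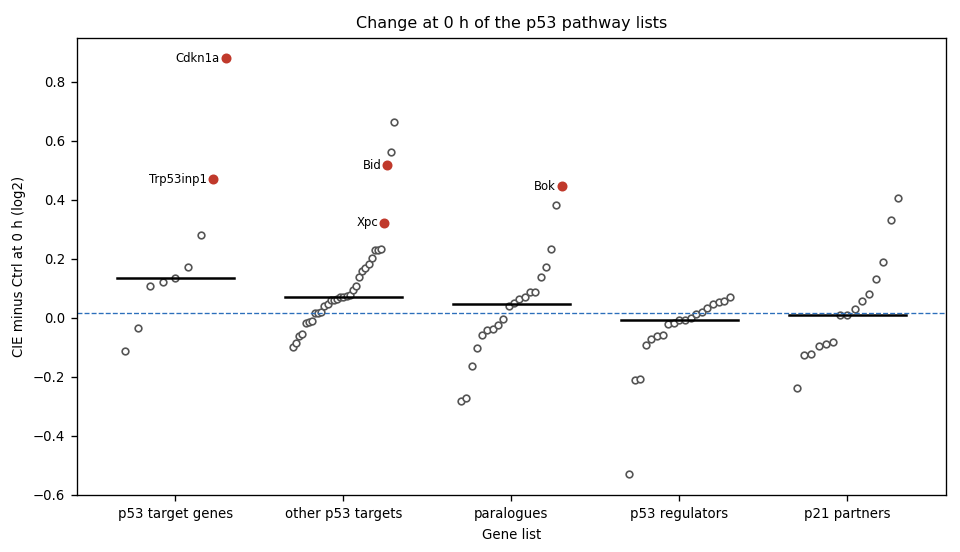
Change at 0 h (CIE minus Ctrl, log2, vertical axis) of each gene of 5 lists at its brightest probeset, red and named where the adjusted p was 0.01 or less, with the median of each list as a black line and that of all genes (0.02) dashed. The list medians were 0.13 for the 9 p53 target genes, 0.07 for other p53 targets, 0.05 for paralogues, -0.01 for p53 regulators and 0.01 for partners of p21.

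Promoter windows of the same length were read for the other genes of the list too. Of 13 windows of 9 genes, 6 windows of 6 genes held a decamer (Cdkn1a, Gadd45a, Bax, Sesn1, Mdm2 and Ccng1), beside 7.13% of all windows. The Cdkn1a window above was the 1 with 2 decamers, beside 0.0639% of all windows. The list was made of known p53 targets, so this count is no result of the expression data. Trp53inp1 was not among the 9 genes with a window, and its promoter was not analysed here. Stretches of 30 bases around the decamers of 4 genes whose probesets did not pass are shown for comparison with that of Cdkn1a, with the decamer in capitals. They lie at chr6:67037428-67037457 (minus strand), chr10:41887256-41887285 (plus strand), chr10:117710925-117710954 (minus strand) and chr11:40755452-40755481 (minus strand) of GRCm38.p6.
Gadd45a: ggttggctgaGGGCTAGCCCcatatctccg
Sesn1: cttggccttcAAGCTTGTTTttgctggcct
Mdm2: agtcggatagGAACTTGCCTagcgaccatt
Ccng1: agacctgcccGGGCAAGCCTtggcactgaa

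Of the 6 genes with a decamer Cdkn1a passed at 0 h, Mdm2, Ccng1, Gadd45a and Sesn1 did not, and Bax was not analysed here.

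The Cdkn1a and Trp53inp1 values were also set against each other array by array. Over the 45 arrays their r was 0.64 (Spearman rho 0.35), and after the 8 group means were removed it was 0.25. These values describe arrays that share the group differences, and no p is given. The p53 target most like Trp53inp1 within groups was Phlda3 (r = 0.65), followed by Gadd45a (r = 0.60). The one most like Cdkn1a was Mdm2 (r = 0.46). In each case many genes outside the list had a higher r. Without the 2 arrays farthest from the median of Trp53inp1, r was 0.56 for Phlda3 and 0.52 for Gadd45a. Without those farthest from the median of Cdkn1a, r was 0.27 for Mdm2.

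Of 18192 other genes at their brightest probesets, the 5 with the highest r with Cdkn1a over the 45 arrays were Fkbp5 (0.90), Rasd1 (0.88), Ddit4 (0.86), Zfand4 (0.85) and Angptl4 (0.83). After removal of the group means they were Sgk3 (0.85), Fkbp5 (0.81), Rasd1 (0.76), Ddit4 (0.74) and Zfand4 (0.72). Without the 2 arrays farthest from the Cdkn1a median the within-group r was 0.74 for Sgk3 and 0.72 for Fkbp5.

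Fkbp5, which encodes a co-chaperone, showed the likeness array by array at 0 h. In the CIE replicates ordered by Cdkn1a from low to high (72, 67, 43, 5, 17 and 26) Fkbp5 was at 10.03, 10.30, 10.59, 10.82, 10.71 and 10.94, while its Ctrl arrays lay between 9.74 and 10.26. The CIE arrays with the least Cdkn1a were also those with the least Fkbp5. Of the 3 CIE arrays with the highest cortical markers, 72 and 67 were the lowest in Cdkn1a and 5 was among the upper 3.

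The genes most like Trp53inp1 over the 45 arrays were Tmem159 (r = 0.83), Hint3 (0.82), Ada (0.81), Pdk4 (0.81) and Rhou (0.80). After removal of the group means they were Acot1 (0.83), Spsb1 (0.82), Lbr (0.81), Mettl7a1 (0.81) and Bach1 (0.80). No gene was on both the Cdkn1a and the Trp53inp1 lists.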

How the data were processed

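RNA of 45 mice was hybridized to Affymetrix whole-genome mouse arrays, 1 mouse per array. The authors deposited RMA values, which are log2 expression for each probeset. Per their methods, hybridization batches were background corrected and normalized apart, then quantile normalized together and adjusted with ComBat. No source used here gives the RMA version. No value was transformed or filtered. Mice were grouped by their labels, and 3 groups hold 5 arrays where the others hold 6. All 45 columns of the table were mapped to a sample.

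Probesets were named from the platform annotation (34945 of 45037 with 1 symbol), with symbols and positions updated from RefSeq (GRCm38.p6). A gene was described by its brightest probeset, the one with the highest mean over all arrays, and by any other probeset that was called. From each list up to 6 called genes were named by smallest p, and 5 genes by likeness. Genes named at 0.05, as examples, or with no call, and the array-by-array values of Fkbp5, were chosen after their values were seen. The members, the gene lists and the markers were chosen with earlier results of these data known.

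Linear models with 1 mean per group were fitted to all arrays and probesets with limma 3.58.1 in R 4.3.3, with default empirical Bayes settings and Benjamini-Hochberg adjustment over 45037 probesets in each comparison. The threshold was 0.01, with counts also at 0.05. Tested on simulated data for CIE minus Ctrl at 0 h over 45037 probesets, the fit recovered 30% of 50 changes with a size of 0.3 on the log2 scale, 58% at a size of 0.5 and 94% at 0.9. The changed probesets were drawn at random, and the noise was normal with the same spread in all groups.

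The labels give no batch. Arrays that shared at least 5 exactly equal values (tolerance 2e-08) were joined into 6 sets of 6 to 8 arrays, and Ctrl 0 h replicate 20 was in none. These sets are inferred and may differ from the authors' batches. Alternatives were another quantile normalization, centring on array medians, trend and robust empirical Bayes settings, array weights, only the arrays of the times compared, adjustment over the 4 times together, 1 probeset per gene, only probesets above the median brightness, the sets as a block, and leaving out each array in turn. Promoter windows were the 250 bases before each start in a RefSeq table of GRCm38.p6. A decamer was an exact match to RRRCWWGYYY, with R for A or G, W for A or T and Y for C or T, and no mismatch was allowed.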

Additional observations from a re-analysis of the deposited data

Results flagged for a closer look

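Of the 152 groups of arrays looked at, 1 for each probeset, treatment and time, 9 held an array far from the others of its group. Chance flags about 1 in 20 groups, so this number is close to what chance gives. No explanation was tested for any of them.

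CIE replicate 51 at 8 h stood apart 3 times. It was the highest of its group for Cdkn1a at 1421679_a_at, at 9.12 with the next array at 8.57, and the lowest for Ccng1 at 1450017_at, at 8.93, and for Phlda3, at 8.74. In the Ctrl arrays of 8 h, replicate 8 was the lowest for Cdkn1a at 1424638_at, at 8.68, and replicate 79 the highest for Ccng1 at 1450017_at, at 9.04.

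CIE replicate 27 at 7 d was the highest for the dim Mdm2 probeset 1457929_at, at 4.63, and the lowest for Sesn1 at 1454699_at, at 9.96. Ctrl replicate 62 at 7 d was the lowest for Mdm2 at 1457929_at, at 4.16. Ctrl replicate 48 at 0 h was the highest for Ccng1 at 1420827_a_at, at 10.86, the array that closed most of the gap between the groups of that probeset.

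The effect of CIE on Cdkn1a (1424638_at) differed between times at the 0.05 threshold, though not at 0.01, by a test of the difference itself. The change at 7 d minus that at 0 h was -1.02 (adjusted p = 0.0459 in limma), with 4 of 6 CIE arrays above all Ctrl arrays at 0 h and none at 7 d. With the hybridization sets as a block the adjusted p was 0.158, and at the second probeset it was 0.137 without the block, so that neither passed 0.05.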

How the results depend on the processing

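Of 780 alternative values of 40 changes (10 probesets at 4 times), 721 kept direction and side of the threshold, 46 had the opposite sign without being called, 5 were no longer called and 8 were newly called. The Trp53inp1 change at 0 h kept its call in every setting but 1: with only the arrays of 0 h it was 0.47 with an adjusted p of 0.0271. The Cdkn1a change (1424638_at) at 0 h was no longer called with only those arrays (0.88, adjusted p = 0.198) and with the hybridization sets as a block (0.85, adjusted p = 0.0201), and leaving out 1 array at a time it ran between 0.70 and 1.05. Its second probeset, just outside the threshold, was called with another quantile normalization, median centring, array weights or the brighter probesets only. The cause of these moves was not tested.

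The count of 2 called probesets at 0 h was 0 with only the arrays of 0 h, 1 with the sets as a block, and 1 to 3 without single arrays. For 8 h minus 0 h in CIE mice the count of 0 was 1 at 0.05, 1 with array weights and 0 to 2 without single arrays. For 7 d minus 0 h in CIE mice 3 became 5 at 0.05 and 5 among the brighter probesets, with 2 to 4 without single arrays, and for 72 h it was 2 to 3. The difference of the change at 7 d from that at 0 h gave 1 at 0.05 and 0 to 1 without single arrays. The F test gave 4 at 0.05, 2 with array weights, 2 among the brighter probesets, 0 with the sets as a block and 0 to 3 without single arrays, against 1. Without the 3 CIE arrays of highest cortical marker means, a setting chosen after seeing the data, counts were 2 for 8 h minus 0 h in CIE mice, 2 each for the changes at 72 h and at 7 d minus that at 0 h, and 2 for the F test. These arrays include the lowest Cdkn1a values of CIE at 0 h, so the setting by itself raises the Cdkn1a change there.

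Changes near 0 turned sign. Mdm2 at 0 h was 0.063 without those 3 arrays, and with array weights it was -0.0018 at 8 h and 0.00086 at 72 h. Bbc3 at 0 h was -0.00090 with the sets as a block and -0.0047 without the 3 arrays, and with array weights it was -0.019 at 8 h and -0.033 at 72 h. Without single arrays, Mdm2 ran between -0.057 and 0.017 at 0 h, -0.012 and 0.040 at 8 h, -0.051 and 0.012 at 72 h, and -0.015 and 0.051 at 7 d. Bbc3 ran between -0.021 and 0.072 at 8 h and -0.025 and 0.051 at 72 h, Btg2 between -0.12 and 0.025 at 8 h and -0.043 and 0.12 at 7 d, and Ccng1 between -0.0047 and 0.066 at 8 h. Cdkn1a ran between -0.062 and 0.032 at 72 h and its second probeset between -0.16 and 0.021 at 7 d. Trp53inp1 ran between -0.026 and 0.073 at 72 h and -0.0088 and 0.045 at 7 d, Sesn1 between -0.014 and 0.029 at 72 h, Gadd45a between -0.027 and 0.093 at 7 d and Phlda3 between -0.14 and 0.045 at 7 d.

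No paired analysis by replicate number was possible because every mouse has a number of its own and groups share none. The inferred hybridization sets, which hold CIE and Ctrl arrays together, were fitted as a block instead. The block also took the difference of the Cdkn1a change at 7 d from that at 0 h (adjusted p = 0.158) and the Sesn1 differences within CIE mice at 8 h and 72 h (0.0616 and 0.0827) above 0.05. Changes of 0.3 log2 units at randomly drawn probesets were recovered in 30% of simulated cases at 0 h. The simulation changed fewer probesets than were called at 0 h in the data. Its noise had the same spread in every group, so this share is not the power for any p53 target gene.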
